A study of Mus musculus with 4 samples.

Results

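The 96 genes described here are the mouse cytochrome P450 genes whose symbol is Cyp followed by a digit, selected on the name alone from 99 protein-coding autosomal genes of that name after Cyp11a1, Cyp17a1 and Cyp19a1, which make sex and adrenal steroids, were set aside. Their group was chosen by a rule written with the methylation levels and differences of these same 4 samples in view. They are 96 of the 20665 autosomal protein-coding genes in the reference table. The rule keeps 3 genes of adrenal steroid synthesis, Cyp11b1, Cyp11b2 and Cyp21a1, so the set does not lie wholly outside steroid synthesis. Whole-genome bisulfite sequencing, in which an unmethylated cytosine reads as thymine, had been run on male germ cells of 21-day-old mice. The 2 control samples were Np95fl/fl, which carry a floxed but intact Np95 gene. The 2 knockout samples were Np95fl/fl:Stra8-Cre, in which the Cre recombinase under the Stra8 promoter, active in male germ cells, also acts on that gene. All 4 samples therefore carry the floxed allele, and no sample carries Cre without it. The germ cells were a dissociated and filtered suspension with no sort for a stage, so a level in the knockouts is a mean over whatever cells the suspension held, and a loss in every cell cannot be told apart from a larger loss in some of them.

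Cytochrome P450 enzymes are haem proteins that insert oxygen into small molecules. The families 1, 2 and 3 mainly clear drugs and other foreign compounds in the liver, the 4 family and the Cyp2j genes oxidise fatty acids and eicosanoids, and smaller groups act on cholesterol and bile acids, retinoic acid or vitamin D. In the testis the Cyp26 enzymes are known for breaking down retinoic acid, the signal that starts meiosis, while most liver P450 genes are not known for a role in germ cells. Np95, also called Uhrf1, binds newly copied DNA that is methylated on a single strand and brings the maintenance methyltransferase Dnmt1 to it.

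Each gene was measured in up to 3 regions. The gene body, trimmed by 2000 bp at both ends, needed at least 10 CpGs with a value in all 4 samples, and 87 genes had such a body. The other 9 genes were Cyp8b1, Cyp21a1, Cyp26a1 and the 6 Cyp2d genes Cyp2d9, Cyp2d10, Cyp2d11, Cyp2d12, Cyp2d26 and Cyp2d40, whose annotated lengths lay between 1950 and 4869 bp. Each gene end, a window of 1000 bp outside and 500 bp inside the gene boundary, needed at least 5 CpGs, which left 127 of 192 ends. Both ends were measured in 51 genes, a single end in 25 and neither in 20, and every gene had at least 1 region. The strand was known for 75 genes, so that 50 ends were starts, 45 were stops and 32 had no orientation.

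The promoters of the Cyp2j genes on chromosome 4 are shown because these neighbouring genes of the same subfamily, all with few CpGs, ranged from unmethylated to heavily methylated. The sequences come from RefSeq (assembly GRCm38.p6, the same build as mm10), each running from 250 bases before to 50 bases after an annotated transcript start, 5′ to 3′ on the gene's strand, with every CpG in capitals.
Cyp2j13 (chr4:96077498-96077797, - strand): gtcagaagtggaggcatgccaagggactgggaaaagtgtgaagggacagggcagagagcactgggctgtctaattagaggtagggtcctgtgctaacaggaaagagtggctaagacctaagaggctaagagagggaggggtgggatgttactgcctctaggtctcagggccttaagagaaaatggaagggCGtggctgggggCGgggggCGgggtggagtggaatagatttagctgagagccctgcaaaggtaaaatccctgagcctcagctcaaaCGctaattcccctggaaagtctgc
Cyp2j9 (chr4:96591436-96591735, - strand): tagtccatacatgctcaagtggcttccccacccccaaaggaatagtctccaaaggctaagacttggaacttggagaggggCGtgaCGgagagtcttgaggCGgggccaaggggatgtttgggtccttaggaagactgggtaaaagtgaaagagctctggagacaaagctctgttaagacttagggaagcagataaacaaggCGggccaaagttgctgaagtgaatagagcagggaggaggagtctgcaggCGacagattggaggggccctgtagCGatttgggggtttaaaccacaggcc
Cyp2j6 (chr4:96553602-96553901, - strand): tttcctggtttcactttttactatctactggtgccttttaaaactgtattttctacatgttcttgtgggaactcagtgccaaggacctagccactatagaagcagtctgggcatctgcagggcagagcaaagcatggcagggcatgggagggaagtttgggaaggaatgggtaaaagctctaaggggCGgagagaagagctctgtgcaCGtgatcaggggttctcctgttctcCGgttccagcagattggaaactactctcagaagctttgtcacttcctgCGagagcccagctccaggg
Cyp2j12 (chr4:96141103-96141402, - strand): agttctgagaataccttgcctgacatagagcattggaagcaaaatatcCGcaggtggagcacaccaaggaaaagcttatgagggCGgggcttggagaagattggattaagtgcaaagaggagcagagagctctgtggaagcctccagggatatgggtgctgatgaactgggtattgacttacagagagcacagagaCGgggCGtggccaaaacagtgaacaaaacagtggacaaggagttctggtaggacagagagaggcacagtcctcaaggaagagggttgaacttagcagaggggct
Cyp2j5 (chr4:96664070-96664369, - strand): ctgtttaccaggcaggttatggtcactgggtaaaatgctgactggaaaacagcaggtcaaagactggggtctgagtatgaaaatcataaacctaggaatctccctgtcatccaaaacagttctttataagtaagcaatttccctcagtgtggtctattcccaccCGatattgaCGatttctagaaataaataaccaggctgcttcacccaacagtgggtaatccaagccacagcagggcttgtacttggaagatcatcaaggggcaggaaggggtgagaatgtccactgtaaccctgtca

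A further 3 promoters from the same source are shown for contrast. Cyp1a1, which oxidises aromatic hydrocarbons and is the classic target of the aryl hydrocarbon receptor, had an intermediate level. Cyp26a1, which inactivates retinoic acid, has the CpG-dense kind of promoter, and Cyp2e1, which oxidises ethanol and small solvents, has a CpG-poor, highly methylated one.
Cyp1a1 (chr9:57697363-57697662, + strand): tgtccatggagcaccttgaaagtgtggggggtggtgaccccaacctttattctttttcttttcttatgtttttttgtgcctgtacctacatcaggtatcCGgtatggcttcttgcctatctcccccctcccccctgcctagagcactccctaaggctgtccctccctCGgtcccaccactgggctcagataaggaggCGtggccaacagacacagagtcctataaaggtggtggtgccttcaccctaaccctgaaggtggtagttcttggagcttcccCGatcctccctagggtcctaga
Cyp26a1 (chr19:37697558-37697857, + strand): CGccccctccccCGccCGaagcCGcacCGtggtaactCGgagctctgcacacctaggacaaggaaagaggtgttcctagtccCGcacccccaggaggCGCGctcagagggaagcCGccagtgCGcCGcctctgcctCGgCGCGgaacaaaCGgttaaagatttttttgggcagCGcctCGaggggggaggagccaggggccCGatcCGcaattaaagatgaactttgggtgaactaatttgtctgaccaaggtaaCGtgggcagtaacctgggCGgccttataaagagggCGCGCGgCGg
Cyp2e1 (chr7:140763569-140763868, + strand): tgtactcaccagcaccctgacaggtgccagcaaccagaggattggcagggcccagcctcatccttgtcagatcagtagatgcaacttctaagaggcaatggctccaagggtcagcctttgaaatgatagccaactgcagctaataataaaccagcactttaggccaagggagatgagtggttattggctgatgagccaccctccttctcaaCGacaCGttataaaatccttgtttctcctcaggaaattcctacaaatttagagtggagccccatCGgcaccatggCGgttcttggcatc

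The 300-bp promoter windows of the Cyp2j genes differed widely in the controls, and are given as a description with no test. The Cyp2j13 window was at 1.33% and 0% in controls 1 and 2 and then 1.54% and 0.952% in knockouts 1 and 2, as the mean over its 4 CpGs. The Cyp2j9 window, with 6 CpGs, was at 1.74% and 0.521% in the controls, against 1.22% and 0.851% in the knockouts, and the Cyp2j6 window, with 4, at 2.82% and 1.80% against 1.14% and 0%. All 12 of these values were at or under 2.82%, and the groups overlapped except at Cyp2j6, where both knockouts were lower. The Cyp2j12 window was intermediate, at 31.1% and 25.8% in the controls, against 20.3% and 25.9% in the knockouts, and its groups overlapped.

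The other Cyp2j windows were methylated in the controls and lower in both knockouts. The Cyp2j11 window, with 3 CpGs, was at 60.3% and 68.9% in the controls, against 41.8% and 40.7% in the knockouts. The Cyp2j8 window held a single CpG, at 73.3% and 81.0% against 26.7% and 41.5%, and the Cyp2j5 window held 2, at 88.9% and 90.3% against 49.7% and 48.8%. The unmethylated windows held 4 to 6 CpGs and the methylated ones 1 to 3, while Cyp2j12, in between, held 4. The transcript start in the Cyp2j6 window lies 10654 bp inside the annotated gene and that in the Cyp2j9 window 1038 bp inside, since the gene record starts at another transcript. The plot of promoter windows by sample shows this spread.

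**Figure D1:**
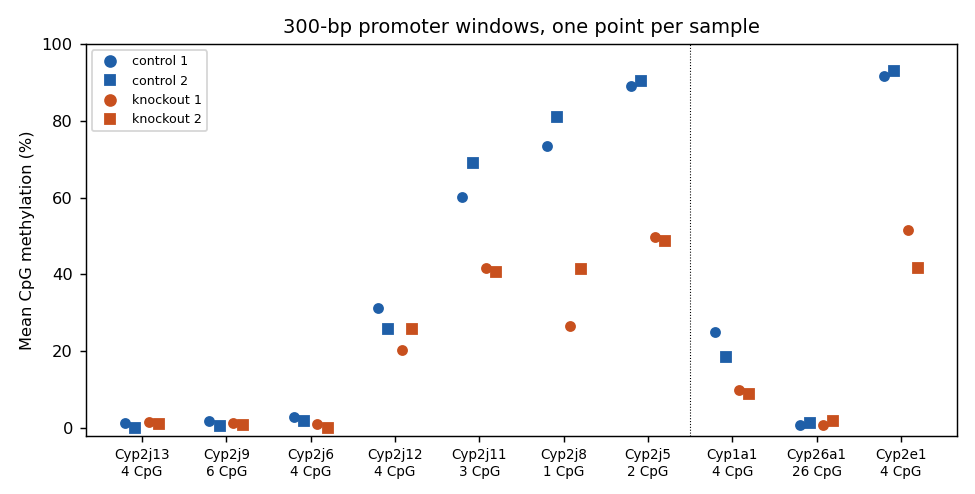
Mean CpG methylation (%) of 300-bp promoter windows in each of the 4 samples, for the 7 Cyp2j genes and, right of the dotted line, Cyp1a1, Cyp26a1 and Cyp2e1, with the number of CpGs measured under each name. The windows of Cyp2j13, Cyp2j9 and Cyp2j6 sit at or under 2.82% in every sample, while those of Cyp2j5 and Cyp2e1 lie at or above 88.9% in the controls and at or below 51.6% in the knockouts.

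The Cyp1a1 window was at 25.1% and 18.4% in the controls, against 9.99% and 8.99% in the knockouts, so that both knockouts lay below both controls. The level was uneven within the window. The CpG 53 bases before the start, which lies in a GCGTG, was at 47.7% and 32.5% in the controls, against 21.5% and 16.5% in the knockouts, while the CpG 83 bases before the start was at 3.34% and 2.17% against 4.17% and 2.27%. GCGTG is the core of the element that the aryl hydrocarbon receptor binds, and a match of these letters is a description only. The transcript start in this window lies 9685 bp inside the annotated Cyp1a1 gene, and the gene end at the annotated start, which lists 8 CpGs, was at 84.0% and 91.4% in the controls, against 57.9% and 55.5% in the knockouts.

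The Cyp26a1 window, with 26 CpGs, was at 0.904% and 1.37% in the controls, against 0.836% and 1.93% in the knockouts, and its groups overlapped. The Cyp2e1 window, with 4 CpGs, was at 91.7% and 93.1% in the controls, against 51.6% and 41.8% in the knockouts, with no overlap.

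Over the 75 Cyp promoters with a sequence, CpGs were few. The median was 3 CpGs in 300 bp, against 14 over the 16457 autosomal protein-coding promoters of the same length, and 82.7% of Cyp promoters held at most 5 CpGs against 31.5% of all. At least 10 CpGs were found in 10 Cyp promoters (13.3%) and in 58.6% of all promoters. Among 66 Cyp windows with a CpG measured, 15 were under 20% in the controls, 25 lay between 20% and 80%, and 26 were at 80% or more. Of all promoters 74.8% were under 20%.

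All 10 Cyp windows with at least 10 CpGs were under 20% in the controls (Cyp1b1, Cyp20a1, Cyp26a1, Cyp27a1, Cyp2r1, Cyp2s1, Cyp46a1, Cyp4f39, Cyp4v3 and Cyp51), against 99.2% of all promoters of that density. With under 10 CpGs, 5 of 56 Cyp windows were that low (Cyp27b1, Cyp2j13, Cyp2j6, Cyp2j9 and Cyp4f13), which is 8.93% against 28.7% of all such promoters. The classes were not matched for CpG number within them. Of the 65 Cyp windows with under 10 CpGs, 62 held at most 5, against 5190 of 6812 over all promoters, and several Cyp levels rest on a single CpG. Neither difference between these sets was tested.

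4 short motifs were searched on either strand of these promoters. The letters TATAAA, the core of the TATA box, were in 41.3% of Cyp promoters and 13.5% of all, and CCAAT in 45.3% and 39.1%. GGGCGG, which is part of the Sp1 site and itself holds a CpG, was in 22.7% of Cyp promoters and 47.3% of all, and GCGTG, which also holds a CpG, in 22.7% and 39.3%. No motif share was adjusted for the number of CpGs. In the promoters printed above, GCGTG was found at Cyp2j13, Cyp2j9, Cyp2j12 and Cyp1a1, GGGCGG at Cyp2j13, Cyp2j6, Cyp2j12 and Cyp26a1, and TATAAA at Cyp2j5, Cyp1a1, Cyp26a1 and Cyp2e1.

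The bodies of Cyp genes lost methylation as nearly all gene bodies did. A region was called where limma gave an adjusted p under 0.05 and the group means lay 10 or more percentage points apart. By this rule 85 of 87 Cyp bodies fell and 0 rose, where 96.9% of all 15780 gene bodies fell and 0.0127% rose. Relative to the median difference of all bodies, 1 of 87 Cyp bodies was called lower and 28 higher, where 0.355% of all bodies were lower and 13.3% higher. A loss in points is bounded by the control level of the body, and the part of that level in these counts was not tested. The genes were chosen with these same measurements in view, so the counts are a description. The mean over the 87 bodies was 71.8% and 76.1% in controls 1 and 2 and 40.4% and 41.0% in knockouts 1 and 2, or 73.9 ± 3.05% against 40.7 ± 0.406% (SD, n = 2). The median difference was -36.2 points, against -37.8 over all bodies, and the median share retained in the knockouts was 54.3% against 55.6%. Of the Cyp bodies 40 (46.0%) were at 80% or more in the controls, compared with 68.4% of all bodies, and 45 lay between 20% and 80%.

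Both knockouts were below both controls in 86 Cyp bodies, and in 99% of all bodies. Control 2 was above control 1 in 83 of the 87 bodies, whereas knockout 2 was above knockout 1 in 53. The labels do not say whether samples of a group came from separate mice, so p-values reflect the spread of these libraries only, possibly a technical one, and for most bodies it was pooled with that of other bodies at the same level.

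The largest losses were found in the fatty acid and xenobiotic groups. Cyp4a31, a fatty acid hydroxylase, fell from 88.1% and 93.4% in the controls to 40.4% and 44.8% in the knockouts, a difference of -48.2 points (limma adjusted p = 7.87e-19). Cyp2g1, an olfactory enzyme, fell from 88.2% and 90.9% to 42.6% and 43.7% (-46.4 points), and Cyp4x1 from 83.8% and 90.8% to 39.4% and 42.5% (-46.4 points). Cyp4a29 and Cyp2j12 followed with -45.8 and -45.7 points. In these 5 genes, picked for the size of their losses, the controls were all above 83% and the knockouts all below 45%.

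The foreign-compound genes covered the whole range of levels. They were grouped by name, as the Cyp1, Cyp2 and Cyp3 families without Cyp2r1 and the Cyp2j genes, whatever each acts on. They make up 52 of the 96 members, and 45 of their 46 bodies fell, with a median control level of 73.8%. Cyp2e1 fell from 85.5% and 91.9% to 48.7% and 50.2%. Cyp1a2, the caffeine-oxidising neighbour of Cyp1a1, fell from 66.2% and 73.4% to 44.6% and 42.7%, and Cyp1a1 itself from 43.8% and 46.0% to 22.6% and 24.2%. Cyp1b1, which oxidises aromatic hydrocarbons and oestrogens, fell from 41.2% and 47.3% to 19.0% and 22.6%, a call lost without trimming (-6.56 points). The groups did not overlap in any of these 4 bodies, and the controls of Cyp1a1 and Cyp1b1 were lower than the knockouts of Cyp2e1.

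All 27 bodies of the fatty acid and eicosanoid genes fell, with a median control level of 84.4%. Cyp4a14, an omega-hydroxylase that PPARα induces in liver, fell from 84.7% and 90.8% to 46.2% and 46.3%. All 6 measured bodies of the sterol and bile acid genes fell too. Cyp51, which removes a methyl group from lanosterol, fell from 89.2% and 92.5% to 49.8% and 55.7%. Cyp7a1, the rate-limiting enzyme of bile acid synthesis, started lowest in this group and fell from 50.3% and 51.6% to 34.2% and 30.8%. The other 4 bodies, those of Cyp7b1, Cyp27a1, Cyp39a1 and Cyp46a1, had control means between those of Cyp7a1 and Cyp51 and fell by 35.8 to 38.7 points.

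Among the vitamin D genes, Cyp2r1, a 25-hydroxylase, fell from 91.9% and 93.0% to 49.8% and 53.4%. Cyp27b1, which makes the active hormone, fell from 60.6% and 67.0% to 31.9% and 33.1%, and Cyp24a1, which degrades it, from 49.9% and 55.3% to 27.1% and 28.6%. The 3 genes thus kept the same order in both groups. The 2 adrenal bodies were high: Cyp11b1, the final enzyme of corticosterone synthesis, fell from 89.6% and 94.2% to 46.4% and 54.7%, and Cyp11b2, the aldosterone synthase, from 90.9% and 94.4% to 50.8% and 53.6%. Cyp20a1, an enzyme with no established substrate, fell from 83.3% and 89.4% to 53.0% and 54.2%.

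The retinoic acid genes had the lowest bodies next to Cyp2t4. Cyp26b1, the enzyme known for keeping fetal male germ cells out of meiosis, was at 26.2% and 27.7% in the controls and fell to 15.4% and 16.0% (-11.2 points, limma adjusted p = 1.66e-13). Cyp26c1 was at 15.9% and 19.1% in the controls, as against 12.4% and 9.46% in the knockouts, a difference of -6.56 points that was under the 10-point minimum although its limma adjusted p was 1.07e-08. The groups did not overlap in either gene, and the Cyp26b1 call was lost with 5000 bp trimmed (-8.84 points) and with each sample averaged over every cytosine it had a value for (-9.81 points).

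Cyp2t4, a gene of the chromosome 7 cluster, had the only Cyp body that was higher in both knockouts. It was at 12.8% and 10.7% in the controls, against 19.8% and 17.5% in the knockouts, a difference of 6.92 points with a limma adjusted p of 8.88e-09, which did not reach the 10-point minimum. Both knockouts were above both controls in 0.317% of all gene bodies. The measured body is short, chr7:27155714-27156564 in mm10, with 25 CpGs, and the difference was local. Bins of 500 bp were counted from the gene start. The bin from 1500 bp, just before the measured body, was at 18.5% and 12.2% in the controls, against 25.1% and 18.6% in the knockouts, so the groups barely separated.

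The next bin, from 2000 bp and with 21 CpGs, was at 11.3% and 10.2% in the controls, against 20.6% and 17.5% in the knockouts. The bin from 2500 bp, in which the measured body ends, was lower in the knockouts, at 54.3% and 51.5% against 27.1% and 37.9%. So was the bin from 1000 bp, at 35.7% and 34.6% against 28.2% and 27.9%. In the bin from 0 bp the levels were 87.3% and 91.7% against 42.5% and 51.3%, and in the bin from 3500 bp, beyond the trimmed body, 85.3% and 89.7% against 47.3% and 46.6%. Both Cyp2t4 gene ends fell, the start from 85.6% and 90.4% to 45.0% and 48.7%. With the whole gene untrimmed, the Cyp2t4 difference was -17.0 points and was called lower, so its sign depends on the trimming. The plot of single CpGs along Cyp2t4 shows the low stretch and the fall on both sides of it.

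**Figure D2:**
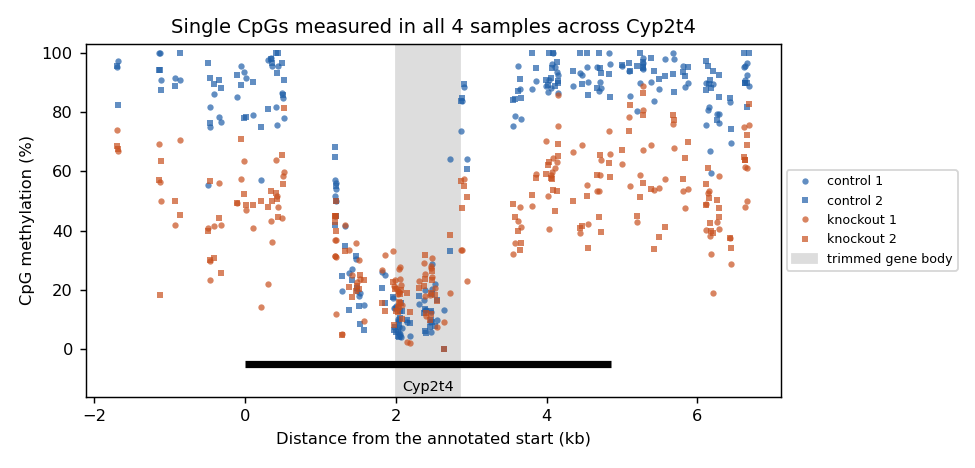
Methylation (%) of single CpGs along Cyp2t4 against the distance from the gene start in kb, with a point for each CpG in each of the 4 samples, the trimmed body shaded and the gene drawn as a black bar. Between 2000 and 2499 bp the knockout mean (19.0%) was above the control mean (10.8%), whereas in the bin from 0 bp it was lower (46.9% against 89.5%).

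Of the 96 genes, 68 lay in 7 tandem clusters, taken as runs of at least 3 Cyp genes with no more than 500 kb between neighbours, and 28 lay elsewhere. The Cyp3a cluster on chromosome 5, whose human counterpart metabolises many drugs, had the lowest bodies, with a mean over 8 genes of 59.1% and 60.3% in the controls, against 36.4% and 36.4% in the knockouts. The Cyp2c cluster on chromosome 19 followed, at 67.1% and 73.1% in the controls, against 39.8% and 40.5% in the knockouts over 14 genes. The Cyp2d cluster on chromosome 15 had the highest bodies, at 92.2% and 94.1% against 46.2% and 53.7%, but only 2 of its 8 genes had a measured body. The order of the clusters in the controls, from Cyp3a to Cyp2d, spanned 33.4 points and that in the knockouts 13.6 points.

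Between these lay the Cyp2 cluster on chromosome 7, from Cyp2s1 to Cyp2t4, with a mean of 73.7 ± 2.82% in the controls, against 40.1 ± 0.396% in the knockouts (SD, n = 2), and the Cyp2j cluster with 75% ± 3.66 and 41.8 ± 0.0144%. The Cyp4f cluster on chromosome 17 had 79.8 ± 3.20% and 42.9 ± 0.486%, and the cluster of Cyp4a, Cyp4b1 and Cyp4x1 on chromosome 4 had 84.7 ± 3.53% and 43.9 ± 0.0525%. The control means of the chromosome 7 and Cyp2j clusters differed by less than the control SD of either. The sequence between the genes was also lowest in the Cyp3a cluster, at 56.2% in the controls, against 35.9% in the knockouts, and next lowest in the Cyp2c cluster, at 62.7% and 38.3%. It was further below the bodies in the Cyp4f, Cyp4a and Cyp2d clusters, at 70.5%, 74.2% and 81.8% in the controls, and near them in the chromosome 7 and Cyp2j clusters, at 73.8% and 74.2%.

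**Figure D3:**
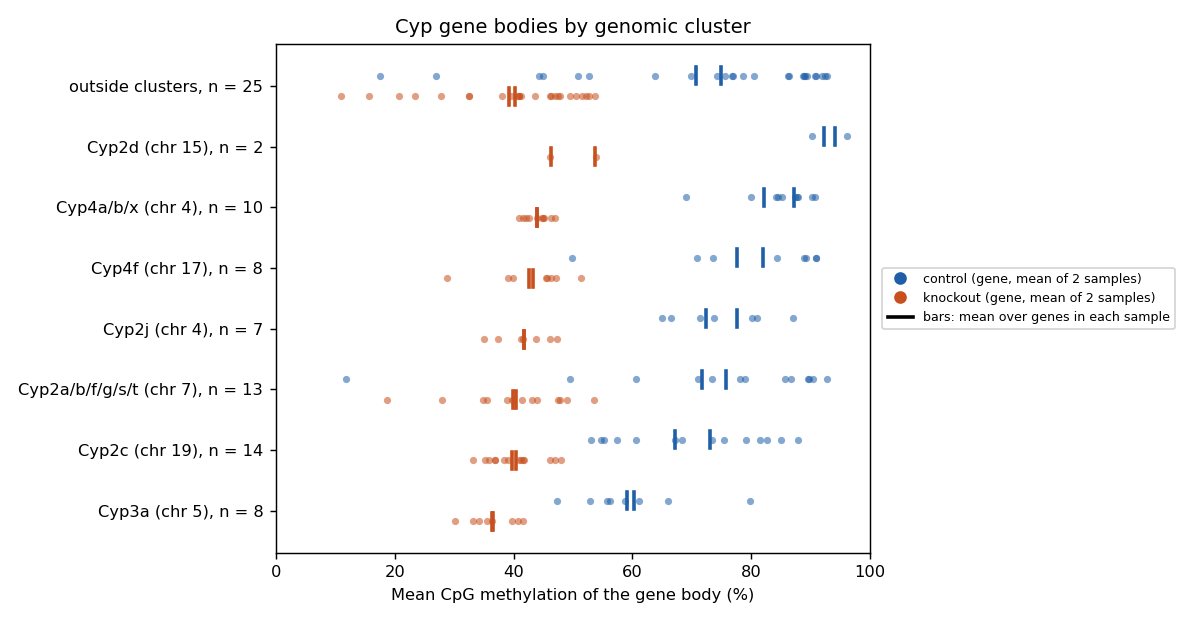
Mean CpG methylation (%) of Cyp gene bodies by genomic cluster; each point is a gene (mean of 2 samples), blue for control and red for knockout, and each bar the mean over the genes in a sample. The control means run from about 60% in Cyp3a to above 90% in Cyp2d, while the knockout means lie between 36.4% and 53.7%.

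In the Cyp3a cluster all 8 bodies fell, but from intermediate levels. Cyp3a11, the main inducible Cyp3a enzyme of mouse liver, fell from 55.2% and 56.2% to 32.5% and 35.7%. Cyp3a44 fell from 58.2% and 59.4% to 40.2% and 41.3%, and Cyp3a41a from 48.2% and 46.4% to 31.2% and 29.2% (-17.1 points, the smallest loss in the cluster). Cyp3a57 stood apart from its neighbours at 79.0% and 80.7%, falling to 41.3% and 41.9%. The Cyp3a bodies thus differed by 32.5 points in the controls and by 11.4 points in the knockouts.

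The share of methylation retained in the knockouts was also compared at a matched control level. Over the 15 Cyp bodies between 40% and 60% in the controls the median retained share was 62.8%, against 56.5% over the 1004 bodies of all genes in that range. The share was 69.3% in Cyp3a44, 65.5% in Cyp2c67 and 63.8% in Cyp7a1, but 52.9% in Cyp24a1, 52.1% in Cyp1a1 and 46.9% in Cyp1b1. Of the 15 bodies, 5 were Cyp3a and 4 were Cyp2c genes. The annotated Cyp2c39 body contains that of Cyp2c38, so these 2 share cytosines, and without Cyp2c38 the median of the other 14 was 62.7%. The difference between Cyp genes and all genes was not tested. Between 60% and 80% the medians were 54.1% for 29 Cyp bodies and 53.8% for all genes, and at 80% or more 52.8% for 40 Cyp bodies and 55.9%.

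Tandem copies are near-identical in sequence in several clusters (Cyp3a41a and Cyp3a41b, Cyp4a12a and Cyp4a12b, and many Cyp2c and Cyp2d genes), and how reads were placed among copies is not given, so levels of single copies are uncertain. The share of listed CpGs with a value in all 4 samples was 59.2% in the Cyp2c cluster, 60.5% in the Cyp2j cluster and 67.9% in the Cyp3a cluster, against 97.3% in the Cyp2d cluster. Its part in the levels was not tested.

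At the gene ends, 102 of 127 Cyp ends fell and 0 rose by the same rule, where 57.3% of all 34920 gene ends fell and 0.16% rose. The mean over the 127 ends was 64.4% and 68.2% in the controls, against 35.3% and 35.4% in the knockouts, and the median difference was -38.3 points against -29.9 over all ends. Both knockouts were below both controls in 113 of the 127 Cyp ends and above in 0, where they were below in 75.7% of all ends and above in 5.78%. The number called differed with the number of CpGs. Among ends with under 30 CpGs listed, 99 of 106 Cyp ends (93.4%) fell and 0 rose, where 91.5% of all such ends fell and 0.132% rose. Among ends with 30 or more, 3 of 21 Cyp ends (14.3%) fell and 0 rose, where 8.41% of all fell and 0.202% rose. CpG-rich ends made up 21 of 127 among Cyp genes and 14392 of 34920 among all genes. Within each density class the share of Cyp ends that fell was near the background. Relative to the median difference of all ends, 49 Cyp ends were called lower and 32 higher, where 27% of all ends were lower and 45.7% higher. Tested on each end's own spread alone, 36 Cyp ends were called lower and 0 higher, where 22.1% of all ends were lower and 0.0229% higher.

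**Figure D4:**
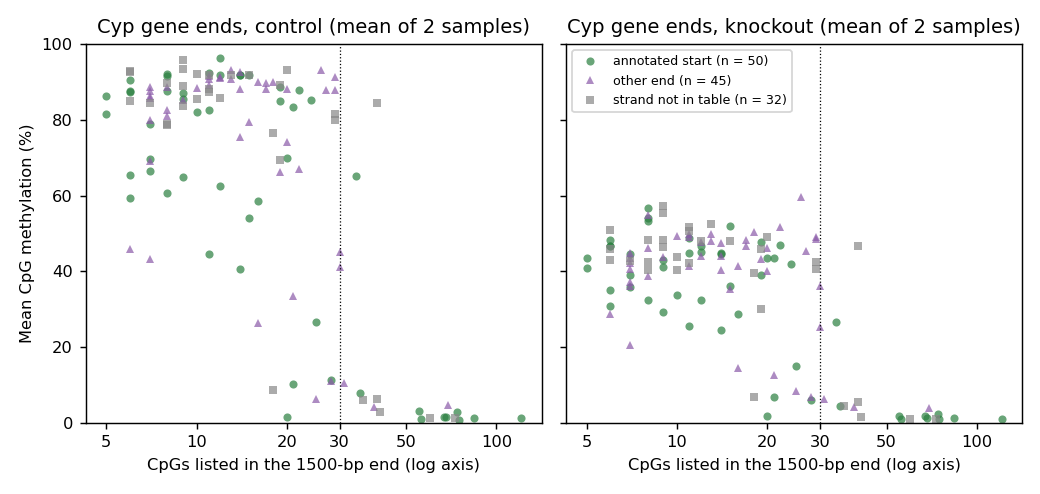
Mean CpG methylation (%) of the 127 Cyp gene ends against the number of CpGs listed in each end (log axis), as group means of 2 controls and 2 knockouts. Of the 21 ends with 30 or more CpGs, 17 sit under 20% in the controls, compared with 6 of the 106 ends with fewer CpGs.

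The starts showed the same dependence. Of 50 Cyp starts 37 fell and 12 were under 20% in the controls, while of 14699 starts of all genes 4136 fell and 10308 were under 20%. The largest losses were at the start of Cyp4f14, which inactivates leukotriene B4 and fell from 83.5% and 91.5% to 32.8% and 37.6% (-52.3 points, limma adjusted p = 1.51e-07), and at the stop of Cyp2b10, the phenobarbital-inducible gene, which fell from 86.8% and 88.4% to 34.2% and 38.2% (-51.4 points). The start of Cyp4a32, the lower-numbered end of Cyp11b2 and the stop of Cyp27a1 followed with -51.1, -49.7 and -48.6 points. These 5 ends were picked for the size of their losses.

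The 23 Cyp ends under 20% in the controls had control means of at most 11.2%, so that a loss of 10 points was hardly possible, and none was called. Both knockouts were below both controls in 11 of them and above in 0, and the groups overlapped in 12, where of all 14227 gene ends under 20% in the controls both knockouts lay below in 42% and above in 14.2%. In 7 of these 23 ends the limma adjusted p was under 0.05, where 27.6% of all such ends had one. The start of Cyp27a1, the mitochondrial sterol 27-hydroxylase, was at 10.9% and 11.5% in the controls, against 5.19% and 6.74% in the knockouts (limma adjusted p = 0.000687). The stop of Cyp4f18 was at 10.8% and 10.2% against 5.12% and 7.35% (limma adjusted p = 0.0042), and the start of Cyp4f39, which acts on very long fatty acids of the skin barrier, at 7.47% and 8.35% against 5.21% and 3.89% (limma adjusted p = 0.00302). These differences were -5.22, -4.27 and -3.36 points, each with both knockouts below both controls. With the window set to 500 bp outside, the Cyp4f18 difference was 0.00812 points, while with 2000 bp outside the Cyp27a1 and Cyp4f18 ends were called lower (-11.9 and -12.2 points).

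The other ends under 20% whose groups did not overlap were the stop of Cyp2s1 (11.1% to 6.89% in group means), the start of Cyp4f13 (10.2% to 6.90%), an end of Cyp7b1 (8.56% to 6.68%), an end of Cyp4f17 (6.0% to 4.42%), the start of Cyp2s1 (3.05% to 1.89%), an end of Cyp4x1 (2.76% to 1.66%), and the starts of Cyp20a1 (1.55% to 1.17%) and Cyp46a1 (1.18% to 0.972%). With 2000 bp outside, the Cyp2s1 stop and the Cyp4f13 start were called lower (-12.6 and -14.6 points), and with 500 bp outside the differences of the Cyp4f13 start, the Cyp2s1 start and the Cyp4f17 end were above 0 and not called. The overlapping ones included the starts of Cyp26a1, Cyp51, Cyp1b1, Cyp2r1, Cyp4v3 and Cyp2j13, all under 3% in each group. The largest difference above 0 was at the stop of Cyp4f15, at 5.27% and 7.31% in the controls, against 5.86% and 10.9% in the knockouts, and there the groups overlapped. The low ends of Cyp24a1 and Cyp39a1 also hold the ends of Pfdn4 and Slc25a27, so they may be shared with those neighbours.

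Ends of the same gene could differ. The Cyp26c1 start, with 34 CpGs listed, fell from 71.4% and 59.0% to 28.9% and 24.5%, whereas its stop, with 69, was at 4.60% and 4.98% against 4.98% and 2.71%. The Cyp26a1 start was at 1.20% and 1.30% against 0.904% and 1.52%, while its stop fell from 84.7% and 91.5% to 42.4% and 45.6%. Cyp26b1 had a methylated start that fell from 79.6% and 87.3% to 38.0% and 48.9%, beside its weakly methylated body.

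The annotated start of Cyp27b1 fell from 23.1% and 29.9% to 14.9% and 15.2% (-11.4 points, limma adjusted p = 0.00119), and its call was lost without control 2. Cyp8b1, the sterol 12-hydroxylase that sets the cholic acid share of bile acids, had no body to measure, but its start fell from 82.7% and 94.4% to 44.2% and 51.3% and its stop from 89.0% and 93.5% to 54.6% and 42.6%. Cyp21a1, the adrenal 21-hydroxylase, had both ends fall, by 37.9 and 43.2 points, and the end with the smaller loss overlaps the Tnxa pseudogene. Outside the low ends, only 2 ends were not called. They were the start of Cyp2c39, at 67.7% and 50.8% in the controls, against 30.9% and 65.4% in the knockouts, and the stop of Cyp4a29, at 42.4% and 40% against 40.2% and 32.0%. The knockout samples differed by 34.5 points at Cyp2c39, an end with few CpGs, and the groups overlapped at both.

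Across distance from the start, the 10 Cyp genes with 30 or more CpGs listed at the start had a deep trough and the 65 others a shallow dip. In the 500 bp after the start the former averaged 7.75% and 6.82% in the controls, against 3.65% and 2.73% in the knockouts. Over all 9782 genes of that class the control mean there was 2.81% and the knockout mean 2.26%. The 10 Cyp genes include Cyp26c1, whose start was methylated in the controls, and its part in their mean was not tested. In the same 500 bp the 65 other Cyp genes averaged 65.3% and 69.5% in the controls, against 36.4% and 38.3% in the knockouts. All genes of that class were at 65.6% and 34.7% in the group means. Away from the start, in the bin at 5000 bp, both sets were methylated: the CpG-rich genes were at 82.9% in the control mean and 39.5% in the knockout mean, and the others at 78.4% and 42.9%.

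**Figure D5:**
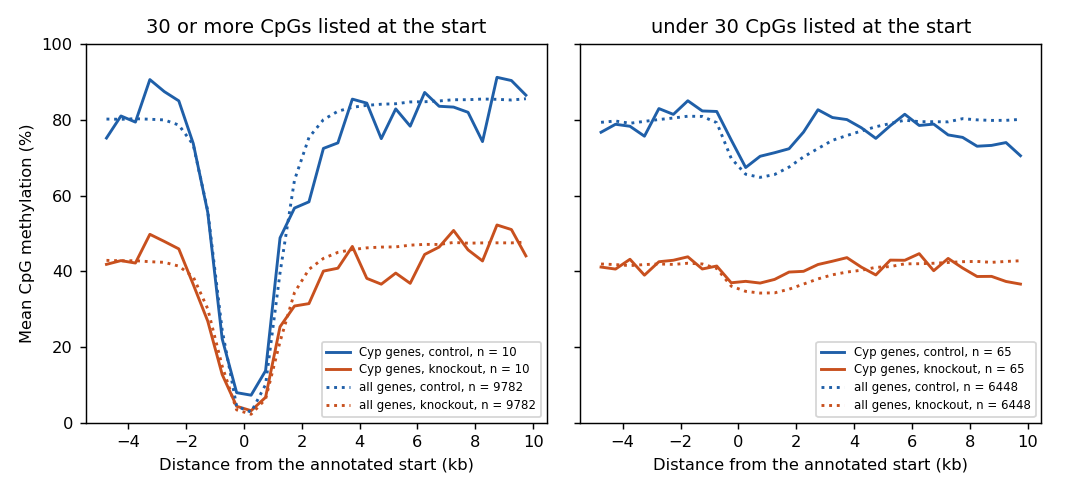
Mean CpG methylation (%) in bins of 500 bp by distance from the annotated start (kb), for Cyp genes with 30 or more (10 genes) and under 30 (65 genes) CpGs listed at the start, in controls and knockouts, with the same over all genes as dotted lines. The trough reaches 7.29% in the controls and 3.19% in the knockouts in the CpG-rich Cyp genes, which include the methylated start of Cyp26c1, against 2.81% and 2.26% over all CpG-rich genes. The CpG-poor Cyp genes lie at 67.4% and 37.3% at the same place.

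Regions just inside and just outside the thresholds on CpGs were set side by side. For bodies this is 1 region on each side, both in the highly methylated Cyp2d cluster, so it says little about other bodies. The body with the fewest CpGs inside, Cyp2d34 with 14, was at 96.1% in the controls, against 53.8% in the knockouts, and the one nearest outside, Cyp2d11 with 7, at 93.1% and 49.3%. The 12 ends with 5 CpGs had a median of 83.6% in the controls, against 41.5% in the knockouts, and the 17 ends with 4 had 79.9% and 38.8%. Their control means ranged widely, from 45.9% to 92.6% with 5 CpGs and from 36.9% to 91.7% with 4.

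Of 16 genes that work with P450 enzymes, listed for this comparison, all 16 bodies fell, and of their 30 measured ends 21 fell and 0 rose, where 96.9% of all bodies and 57.3% of all ends fell and 0.16% of ends rose. The list held the electron donors Por, Cyb5a, Cyb5b, Cyb5r3, Fdx1 and Fdxr, the regulators Ahr, Arnt, Nr1i2, Nr1i3, Hnf4a and Ppara, the epoxide hydrolases Ephx1 and Ephx2, and Ptgis and Tbxas1, P450 enzymes under other symbols. Por, the reductase that supplies electrons to P450 enzymes of the endoplasmic reticulum, fell at its start from 26.9% and 29.2% to 18.7% and 15.8%. Nr1i2, the receptor that induces Cyp3a genes, fell at its start from 73.7% and 89.1% to 33.6% and 37.3%. The start of Ephx1 went the other way, at 2.96% and 3.05% in the controls, against 6.94% and 6.41% in the knockouts (3.67 points, limma adjusted p = 5.75e-05, not called).

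Over the whole genome the samples averaged 69.1% and 72.9% in the controls, against 38.1% and 38.4% in the knockouts. The starts of 6 germline genes that somatic cells methylate (Dazl, Mael, Sycp1, Sycp3, Ddx4 and Tex101) were low in the controls, at 7.18 ± 0.373% on average against 15.2 ± 2.20% in the knockouts (SD, n = 2). All 6 were under 20% in the controls, and 3 of them, Dazl, Sycp1 and Sycp3, rose by the same call rule, where 0.272% of all gene starts rose. Whether the 2 groups held the same mix of germ and somatic cells was not tested, and neither was the part of this shift in the Cyp levels.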

How the data were processed

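DNA methylation had been measured by bisulfite sequencing with adaptors added after conversion (PBAT). The deposited table gives, per the file headers, the methylation of each CpG cytosine in each sample in percent, with strands listed separately. The build was mm10 per the submitters' processing notes, and neither aligner nor caller is stated in any label or header (not given in the sources used here). In its name the deposited file mentions 10 reads as a minimum. Depth per value is unknown, so single values have no interval and all cytosines weighed the same. Of 37230584 listed cytosines, 22421484 had a value in all 4 samples and were used; per sample 28999710 to 29774194 had one. A line lacking a position, 1 in all, was left out.

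Levels of regions are unweighted means of their cytosines. Gene positions, promoter sequences and strand came from RefSeq tables for GRCm38.p6; promoter entries matched 75 of 96 genes. All protein-coding gene bodies, and all gene ends, were fitted with limma 3.58.1 (R 4.3.3; trended, robust) on log2((m + 0.01)/(1 − m + 0.01)), m being the level as a fraction, adjusted by Benjamini-Hochberg over every region of the kind. For 98.9% of bodies the prior had infinite degrees of freedom, and for ends a median of 28.5, against 2 residual. On simulated data, 56% of losses of 10 points, 100% of 20 and 30, and 98% of 40 were recovered among bodies, with 0 false calls, and 16%, 92%, 100% and 100% among ends, with 1. The simulated noise was independent between regions and took the typical spread at each level. Only the planted regions lost methylation, and all of them were highly methylated in the controls. These rates therefore do not cover shifts shared by all regions of a sample, or a loss over nearly all regions. Nor do they cover losses from intermediate or low control levels. An exact two-sided permutation test of 2 against 2 samples cannot give a p below 0.333.

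The members, lists and tests were chosen with earlier results of these data known. Named genes were the 5 largest and 5 smallest losses of each kind, members higher in the knockouts, low ends by count, and a list of 23 genes. Same-numbered samples were not paired by any label, and their deviations from group means correlated at 0.0870 over bodies and 0.0814 over ends. Alternatives changed the offset, scale, variance estimate, centring, CpG minimum, trimming and window, left out each sample, or added a replicate block. The other software was data.table in its version 1.17.8, Python 3.11.15, pandas 2.3.3, NumPy 2.4.6 and Matplotlib 3.10.9.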

Additional observations from a re-analysis of the deposited data

How the results depend on the processing

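Among Cyp gene bodies, 85 were called lower with each sample left out in turn and with the replicate block, and among ends 98 to 101 with a sample left out (98 without control 2) and 102 with the replicate block, against 102 with all 4 samples; 0 were called higher in each case. The median difference ranged from -38.8 to -33.2 points over bodies and from -40.3 to -35.8 over ends with a sample left out. A sample left alone in its group took its spread from the other group. The replicate block changed no call of a named gene.

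Centring each sample on its median turns differences into differences from the typical loss. It left 1 body called lower and 28 higher, and 49 ends lower and 32 higher. Among the named genes alone, the centred difference turned positive for the bodies of Cyp1a1 (16.2 points), Cyp1a2 (11.7), Cyp1b1 (14.3), Cyp20a1 (5.02), Cyp24a1 (13.0), Cyp26b1 (26.6), Cyp26c1 (31.2), Cyp27a1 (1.97), Cyp27b1 (6.46), Cyp3a11 (16.2), Cyp3a41a (20.6), Cyp3a44 (19.7), Cyp46a1 (0.387), Cyp7a1 (19.4) and Cyp7b1 (1.78). It did so for named ends of Cyp20a1 (29.6), Cyp24a1 (29.6), Cyp26a1 (29.9), Cyp26c1 (29), Cyp27a1 (24.7), Cyp27b1 (18.5), Cyp2s1 (28.8 and 25.7), Cyp39a1 (29.7), Cyp3a11 (7.25), Cyp46a1 (29.7), Cyp4f13 (26.6), Cyp4f17 (28.4), Cyp4f18 (25.7), Cyp4f39 (26.6), Cyp4x1 (28.8), Cyp51 (29.6) and Cyp7b1 (28.1). Of these bodies and ends, those under 10 points were not called. Ends under 20% in the controls had less to lose than the typical loss, so their positive sign was fixed by their low level. The same holds for the bodies of Cyp26b1 and Cyp26c1, whose control levels were below the typical loss of bodies. For the other bodies the part of the control level in the centred difference was not tested.

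Each end tested on its own spread, with 2 residual degrees of freedom, gave 36 lower. With no minimum difference 1 body, that of Cyp2t4, was called higher. Without trimming, the median body difference was -30.4 points, with mean levels of 67.5% and 37.4% in controls and knockouts, and the Cyp2t4 difference was -17.0. The mean knockout level of bodies was 39.8% with 30 or more CpGs and 41.5% when trimmed by 5000 bp. For ends it was 36.2% with each sample on its own cytosines and 36.2% with 3 or more CpGs. With 10 or more CpGs, 55 ends fell, at 57.0% and 30.7%. Windows of 500 bp outside gave 61.3% and 33.1%, and of 2000 bp outside 70.5% and 37.5%. The settings of CpG number, trimming, window and cytosines change which regions qualify or which cytosines are averaged in them. Why the levels moved was not tested.

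Ends near 0% changed sign without being called. With 500 bp outside these were Cyp26c1 (0.346), Cyp2s1 (0.144), Cyp4f13 (0.209), Cyp4f17 (0.135), Cyp4f18 (0.00812) and Cyp51 (0.414). With 2000 bp outside they were Cyp1b1 (-1.54), Cyp2j13 (-5.16), Cyp2r1 (-0.636), Cyp4f15 (-7.84) and Cyp4v3 (-0.823), and with every cytosine a sample had a value for Cyp26a1 (0.0455), Cyp2j13 (-0.187) and Cyp4f15 (-1.05). Leaving out a sample gave ranges of -0.0533 to 0.441 at Cyp1b1, -0.345 to 0.271 at Cyp26a1, -2.08 to 0.189 at Cyp26c1, -0.132 to 0.326 at Cyp2j13, -0.523 to 0.124 at Cyp39a1, -0.426 to 4.63 at Cyp4f15, -0.112 to 0.307 at Cyp4v3 and -0.681 to 0.0308 at Cyp51. The Cyp27b1 start was not called without control 2 (-8.05) or with 500 bp outside (-6.46), nor the Cyp3a11 stop without control 1 (-12.4). Over named regions and all alternatives 1126 results kept direction and call, 44 lost it, 19 gained it and 58 changed sign. Depth per value is unknown, so the precision of single CpGs, and of windows with few, cannot be given. The splits by CpG number and the promoter windows were added after seeing the data.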
